A study of Mus musculus with 4 samples.

Results

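The semaphorin, ephrin, netrin and slit families and their receptors were examined in cultured mouse lung fibroblasts of the KrasD12 and wild-type genotypes. The members are the genes with an array row of exactly 1 annotated symbol that names a semaphorin (Sema), plexin (Plxn), neuropilin (Nrp1, Nrp2), Eph receptor (Epha, Ephb), ephrin (Efna, Efnb), netrin (Ntn), netrin receptor (Dcc, Neo1, Unc5), slit (Slit) or Robo receptor. 74 rows fitted, and the row with the highest mean stood for a gene, which gave 69 members of 19938 genes measured. RNA came from primary lung fibroblast lines, cells grown out of collagenase-digested lungs of untreated mice aged 3 to 4 weeks. Per the labels the cultures were checked by immunofluorescence for myofibroblasts. 2 samples, A and B, belonged to the KrasD12 line, which the design text also calls SKY, and 2 samples, A and B, to the wild-type (WT) line. With 1 line for each genotype, an effect of the allele and a difference between the lines cannot be told apart, and no label says that A and B are separate cultures or animals. P-values then measure only the spread between these samples, which may be technical. No promoter, Cre or cell type that drives the allele is named in the labels.

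Guidance molecules were first described as cues that steer growing axons, and they also position cells and vessels in many organs. Semaphorins signal through plexins, and secreted class 3 semaphorins usually need a neuropilin as co-receptor. Ephrins are anchored in the membrane of 1 cell and bind Eph receptor tyrosine kinases on its neighbour, with A-type ephrins held by a lipid anchor and B-type ephrins crossing the membrane. Netrins act through Dcc, neogenin (Neo1) and the Unc5 receptors, and slits through Robo receptors. In the lung these families take part in branching, vessel patterning and the interplay of mesenchyme with epithelium.

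Values are the deposited log2 expression values, on which a difference of 1 is a 2-fold change, and every difference is KrasD12 minus WT. The 2 KrasD12 columns lay higher as a whole, with medians of 6.24 and 6.26 against 5.90 and 5.91, and the median difference of all genes was 0.26, or -0.0038 after quantile normalization. That shift depended on level: it was 0.39 for genes with a mean of 5 to 6 and -0.145 for genes with a mean of 11 to 12. A gene is therefore said to have risen or fallen only where limma called it (Benjamini-Hochberg adjusted p under 0.05 over all genes) both on the values as deposited and after quantile normalization, with the same sign. The dim level is 5.15, the 95th percentile of olfactory and vomeronasal receptor rows, and a mean below it is called dim. 10 of 11 fibroblast markers lay above it in all 4 samples. Of 10 endothelial markers 4 (Cldn5, Egfl7, Tek and Vwf) lay above it in all 4 samples and 5 below it, Pecam1 and Cdh5 among them. Of 10 epithelial markers 5 (Krt8, Krt18, Krt19, Nkx2-1 and Sftpb) lay above it in all 4 samples and 3 below it, Epcam among them. Values of different genes come from different probes and are not compared as levels.

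24 of the 69 guidance genes rose in KrasD12 (34.8%), 11 fell (15.9%), and the remaining 34 lacked a call on 1 or both scalings. Over all genes 22.4% rose and 11.5% fell by the same rule. The mean of 60 members lay above the dim level, and of these 36.7% rose and 18.3% fell, against 24.5% and 15.1% of all genes above that level. At least 2-fold on both scalings were Plxnc1 and Robo1, which rose, and Sema3d, Unc5c and Ntn4, which fell. That is 2 and 3 members, where 1.23% and 1.28% of all genes passed. The median difference of the members was 0.355 as deposited and 0.12 after quantile normalization.

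On the deposited values alone 45 members were called higher, where 50.1% of all genes were, and 11 lower, where 11.9% were (62.1% of all genes in either direction). After quantile normalization 24 were higher and 14 lower, against 22.5% and 24.4% of all genes. Centring the columns gave 17 higher and 20 lower, so the split of higher against lower depends on the scaling. Of the 24 rises, 16 were called on all 4 scalings tried (deposited, quantile, median-centred, cyclic loess), and 8 lost the call when columns were centred: Sema3a, Plxna1, Neo1, Ntn1, Efna4, Efna5, Ephb3 and Ephb4. These 8 kept their call after cyclic loess. Centring lowered every difference alike, whereas the shift of all genes depended on level. Among genes of like mean (within 0.25) the median shift ran from -0.085 for Plxna1 to 0.25 for Ntn1 over these 8. All 11 falls were called on all 4, as centring only moved differences downwards. Over all genes 3220 of 4459 rises and 2295 of 2298 falls were called on all 4. Both KrasD12 samples lay above both WT samples on both scalings in 34 members and below them in 13, against 36.5% and 18.4% of all genes. The mean of 10 members, among them Plxnc1, Dcc and Sema7a, lay above the dim level in KrasD12 only, and that of 4 in neither group. Over all 19938 genes it was 1535 in KrasD12 only, 205 in WT only and 5270 in neither. The receptor rows that set the dim level had a median difference of 0.33 themselves. The 35 called members kept their direction in each of the 4 fits that left out 1 array. That was fixed beforehand, since in each of them both KrasD12 samples lay on 1 side of both WT samples. However, in the fits lacking either WT A or WT B, limma found 0 genes of the whole array past the threshold on the deposited values (smallest adjusted p = 0.0552 and 0.053), and 32 of the 35 had an unadjusted p under 0.05 in each of these fits. After quantile normalization those fits called 19 and 23 of the 35. Without KrasD12 A, 24 were called on the deposited values, and without KrasD12 B, 21.

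**Figure D1:**
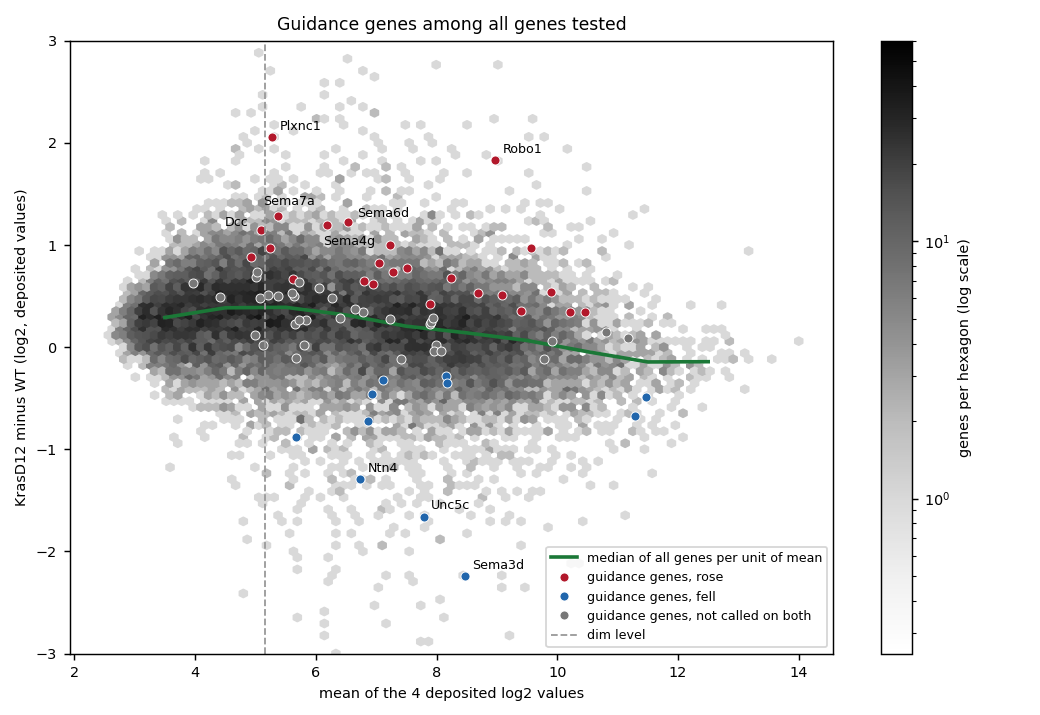
Difference KrasD12 minus WT on the deposited log2 values (vertical) against the mean of the 4 samples (horizontal, log2) for all genes (grey hexagons, shaded by number of genes on a log scale) and the 69 guidance genes (points). The green line joins the medians of all genes by level. Plxnc1 at 2.06 and Robo1 at 1.83 lie highest and Sema3d at -2.245 lowest among the members, and 20 genes beyond 3 in either direction are not drawn.

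Among the 7 secreted class 3 semaphorins, 4 fell and 2 rose, beside 11.5% and 22.4% of all genes. The B-type ephrins and the slits also had more falls than rises, each with 1 fall and 0 rises in 3 members. Sema3d fell the most of all members. It read 7.38 and 7.33 in KrasD12 A and B and 9.66 and 9.54 in WT A and B, a difference of -2.245 ± 0.08 (adjusted p = 0.000144 by limma), or 4.74-fold lower. Errors after ± are limma's moderated standard errors with 2 arrays a group throughout. The groups lay far apart against the spread between A and B, and only 30 genes of the array had a lower difference. Sema3e, a ligand that binds plexin D1 without a neuropilin, read 6.56 and 6.45 against 7.24 and 7.21 in WT and fell by 0.72 ± 0.07 (adjusted p = 0.00131). Sema3c, a neuropilin ligand known from the cardiac outflow tract, read 10.94 and 10.96 against 11.63 and 11.61 and fell by 0.67 ± 0.06. Sema3b read 6.71 and 6.70 against 7.20 and 7.12, a difference of -0.455 that reached -0.74 after quantile normalization. In all 4 genes, picked by their calls, both KrasD12 samples lay below both WT samples on both scalings, as in 18.4% of all genes.

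Sema3a and Sema3f went the other way. Sema3a, the classical repellent that acts through neuropilin 1, read 10.22 and 10.12 in KrasD12 against 9.71 and 9.56 in WT and rose by 0.535 ± 0.08 (adjusted p = 0.0042). With the columns centred on their medians its difference was 0.19 (adjusted p = 0.124). Sema3f, which prefers neuropilin 2, read 8.51 and 8.65 against 7.78 and 8.02 and rose by 0.68 ± 0.11 (adjusted p = 0.00408). Sema3g, at 5.92 and 5.85 against 5.29 and 5.48, was called on the deposited values only, and its difference shrank from 0.50 to 0.12 after quantile normalization.

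Some of the opposite changes concerned genes that lie near each other. In the gene table of assembly GRCm38.p6, Sema3d and Sema3a are neighbours on chromosome 5 with 0 coding genes between them, and Sema3e follows after 3 more. Along that stretch the order of changes was a difference of -2.245, a rise of 0.535 and a fall of 0.72. On chromosome 9, Sema3b fell and Sema3f rose with 3 coding genes between them. The 250 bases before the annotated starts of the first pair are shown because these neighbours parted the most among the semaphorins. They are from RefSeq (GRCm38.p6), Sema3d at chr5:12382916-12383165 and Sema3a at chr5:13396534-13396783, each on the plus strand and written 5′ to 3′.
Sema3d: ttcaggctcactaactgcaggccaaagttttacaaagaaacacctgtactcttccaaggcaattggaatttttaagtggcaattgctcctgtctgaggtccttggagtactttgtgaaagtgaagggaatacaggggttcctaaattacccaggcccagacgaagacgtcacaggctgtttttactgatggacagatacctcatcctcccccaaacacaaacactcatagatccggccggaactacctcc
Sema3a: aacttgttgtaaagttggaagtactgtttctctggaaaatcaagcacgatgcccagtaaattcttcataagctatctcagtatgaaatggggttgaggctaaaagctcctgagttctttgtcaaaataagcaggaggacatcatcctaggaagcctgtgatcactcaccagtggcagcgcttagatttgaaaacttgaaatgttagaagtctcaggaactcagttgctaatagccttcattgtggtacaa
Neither window of 300 bases (250 before and 50 after the start) held any of 5 motifs searched on both strands. These were the AP-1 site TGANTCA, the ETS site CCGGAAG, the GC box GGGCGG, the CRE site TGACGTCA and the TATA box TATAAA. GC content was 49.7% in the Sema3d window and 41.3% in the Sema3a window, against a median of 64.3% over the 75 windows of 59 members in that table and 52.7% over all 32851 windows.

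Of the 13 membrane-bound semaphorins of classes 4 to 7, 5 rose (38.5%) and 1 fell (7.69%), beside 22.4% and 11.5% of all genes. Sema7a, a lipid-anchored semaphorin that binds plexin C1 and integrins, read 5.79 and 6.23 in KrasD12 against 4.66 and 4.79 in WT and rose by 1.285 ± 0.15 (adjusted p = 0.00194), or 0.90 after quantile normalization. Its WT values lay below the dim level, and the KrasD12 samples differed by more than the WT samples. Sema6d, a plexin A1 ligand, read 7.23 and 7.05 against 5.83 and 6.00, a rise of 1.225 ± 0.10 (adjusted p = 0.000825). Sema4g read 6.71 and 6.86 against 5.69 and 5.49 and rose by 1.195 ± 0.10.

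Sema5a, which carries thrombospondin repeats, read 10.02 and 10.07 in KrasD12 against 9.06 and 9.09 in WT, a rise of 0.97 ± 0.07 (adjusted p = 0.000637) that was 0.93 after quantile normalization. Sema6c, at 7.08 and 7.16 against 6.49 and 6.46, rose by 0.645, or 0.355 after quantile normalization. Sema6a, a ligand of plexins A2 and A4, was the member that fell, from 8.39 and 8.32 in WT to 7.93 and 8.08, by 0.35 ± 0.08 (adjusted p = 0.0146). The other 7, the class 4 genes Sema4a to Sema4d and Sema4f with Sema5b and Sema6b, differed by 0.025 to 0.50 on the deposited values and by -0.37 to 0.12 after quantile normalization.

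Plxnc1, the plexin that receives Sema7a, had the largest rise of all members on the deposited values, whereas Robo1 led after quantile normalization (1.74 against 1.69) and cyclic loess (1.74 against 1.65). It read 6.34 and 6.28 in KrasD12 and 4.31 and 4.19 in WT, a difference of 2.06 ± 0.08 (adjusted p = 0.00018), or 1.69 after quantile normalization. The WT values lay below the dim level and the KrasD12 values above it. Of 9 plexins, 3 rose (33.3%) and 1 fell (11.1%), beside 22.4% and 11.5% of all genes. Plxnb1, a receptor of Sema4d, read 7.58 and 7.72 against 6.95 and 6.88 and rose by 0.735 ± 0.08, or 0.505 after quantile normalization. Plxna1 read 10.58 and 10.69 against 10.31 and 10.28 and rose by 0.34 as deposited and 0.38 after quantile normalization, but stood at -0.005 when columns were centred. Plxna2 read 6.90 and 7.00 against 7.30 and 7.25, a difference of -0.325 that was -0.58 after quantile normalization.

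The other 5 plexins and both neuropilins lacked a call on at least 1 scaling. Plxnb3 read 5.14 and 5.64 in KrasD12 against 4.58 and 4.72 in WT, with an SD of 0.35 in KrasD12, and its call at 0.74 ± 0.17 (adjusted p = 0.0141) was lost after quantile normalization (0.34, adjusted p = 0.112). Plxna3, Plxna4, Plxnb2 and Plxnd1 differed by -0.035 to 0.275 as deposited and by -0.20 to 0.20 after quantile normalization. Nrp1, the co-receptor of Sema3a and of VEGF, read 9.74 and 9.71 against 9.82 and 9.87 (-0.12 ± 0.07, adjusted p = 0.168). Nrp2 read 7.86 and 8.02 against 7.95 and 8.01, so that its groups overlapped as deposited. With the columns centred limma called both lower, Nrp1 at -0.465 and Nrp2 at -0.385.

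**Figure D2:**
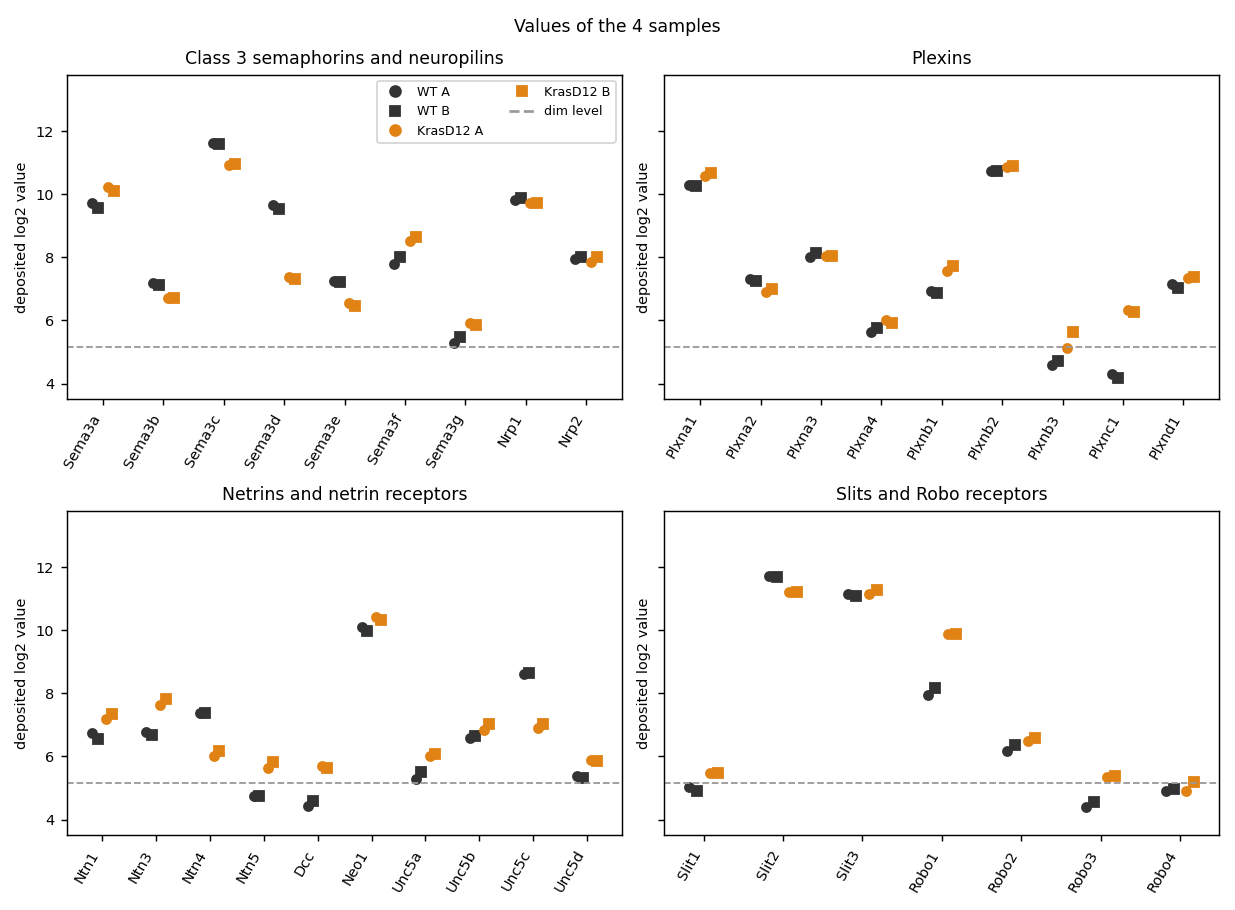
Deposited log2 values (vertical) of WT (black) and KrasD12 (orange) samples A (circles) and B (squares) for 4 sets of guidance genes (horizontal), with the dim level of 5.15 dashed. Sema3d, Unc5c and Ntn4 drop from WT to KrasD12, and Plxnc1 and Robo1 climb, by more than the gap between A and B.

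All 4 netrins were called on both scalings, 3 as rises and 1 as a fall, beside 22.4% and 11.5% of all genes. Ntn4, a netrin of basement membranes that binds laminin, read 6.03 and 6.16 in KrasD12 against 7.38 and 7.39 in WT and fell by 1.29 ± 0.08 (adjusted p = 0.00047), or 2.45-fold. Ntn3 read 7.64 and 7.81 against 6.77 and 6.68 and rose by 1.00 ± 0.09 (adjusted p = 0.000951). Ntn5 read 5.62 and 5.82 against 4.76 and 4.74 and rose by 0.97 ± 0.09, or 0.58 after quantile normalization, with its WT values below the dim level. Ntn1, the founding netrin, read 7.18 and 7.34 against 6.73 and 6.56 and rose by 0.615 ± 0.10, or 0.345 after quantile normalization. Its difference was 0.27 (adjusted p = 0.0537) with the columns centred.

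Of the 6 netrin receptors 2 rose (33.3%) and 1 fell (16.7%), beside 22.4% and 11.5% of all genes. Unc5c, a receptor for repulsion by netrins, read 6.91 and 7.02 in KrasD12 against 8.60 and 8.65 in WT and fell by 1.66 ± 0.07 (adjusted p = 0.000277), or 3.16-fold. Dcc, the receptor for attraction, read 5.69 and 5.63 against 4.43 and 4.59 and rose by 1.15 ± 0.08 (adjusted p = 0.000682) as deposited and by 0.75 after quantile normalization, from below the dim level in WT. Neo1, a receptor of netrins and of repulsive guidance molecules, read 10.42 and 10.34 against 10.11 and 9.97 and rose by 0.34 ± 0.08 as deposited and 0.355 after quantile normalization, but was -0.005 with the columns centred. Unc5a (0.64), Unc5b (0.34) and Unc5d (0.53) were called as deposited and not after quantile normalization, where they stood at 0.26, 0.05 and 0.145, and Unc5b was -0.005 on centring. The Unc5 receptors thus differed in direction on the deposited values, with 1 fall and 3 higher readings.

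Ntn4 and Plxnc1, which moved in opposite directions by 1.29 and 2.06, lie near each other on chromosome 10 with 8 coding genes between them. The 250 bases before their annotated starts are printed for the same reason as above, from RefSeq (GRCm38.p6), Ntn4 at chr10:93640799-93641048 on the plus strand and Plxnc1 at chr10:94944846-94945095 on the minus strand. Capitals mark the GC box GGGCGG on either strand.
Ntn4: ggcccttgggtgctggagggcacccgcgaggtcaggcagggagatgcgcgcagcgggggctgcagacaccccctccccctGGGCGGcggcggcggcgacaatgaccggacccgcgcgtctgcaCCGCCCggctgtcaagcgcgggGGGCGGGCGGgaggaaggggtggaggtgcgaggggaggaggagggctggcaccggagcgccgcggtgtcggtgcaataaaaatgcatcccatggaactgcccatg
Plxnc1: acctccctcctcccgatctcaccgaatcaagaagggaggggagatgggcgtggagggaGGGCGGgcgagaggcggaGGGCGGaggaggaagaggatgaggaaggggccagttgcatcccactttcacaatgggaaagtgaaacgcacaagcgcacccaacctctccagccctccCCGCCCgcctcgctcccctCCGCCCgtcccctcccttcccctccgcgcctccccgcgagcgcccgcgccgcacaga
Each held 4 GC boxes, counting a pair that overlaps in Ntn4, and none of the other 4 motifs lay in either window of 300 bases. The GC box was found in 54 of the 75 member windows (72.0%), in 16 of 22 windows of genes that rose and in 5 of 9 of genes that fell, and in 35.7% of all windows. The AP-1 site occurred in 3 member windows (4.0%, against 7.81% of all windows), all of genes not called on both scalings. For the ETS site it was 2 (2.67% against 8.86%), for the TATA box 2 (2.67% against 13.6%) and for the CRE site 1 (1.33% against 1.79%). These matches describe letters in the windows only.

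Of the 4 Robo receptors 2 rose, and of the 3 slits 1 fell, where 22.4% of all genes rose and 11.5% fell. Robo1, a slit receptor also expressed outside the nervous system, read 9.88 and 9.90 in KrasD12 against 7.95 and 8.17 in WT, a difference of 1.83 ± 0.09 (adjusted p = 0.000369), or 3.56-fold higher, that was 1.74 after quantile normalization. It was far above the dim level in every sample, and 69 genes of the array had a higher difference. Its neighbour on chromosome 16, Robo2, with 0 coding genes between, read 6.50 and 6.60 against 6.17 and 6.36 and differed by 0.285 as deposited and -0.05 after quantile normalization. Robo3, a divergent Robo of commissural axons, read 5.35 and 5.39 against 4.40 and 4.57 and rose by 0.885 ± 0.08, or 0.49 after quantile normalization, from below the dim level. Robo4, the Robo of endothelium, had group means below the dim level and was not called (0.115 ± 0.11, adjusted p = 0.399).

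Slit2 read 11.22 in each KrasD12 sample against 11.72 and 11.69 in WT and fell by 0.485 ± 0.065 (adjusted p = 0.0026), or 0.35 after quantile normalization. Slit3 read 11.15 and 11.27 against 11.16 and 11.09, and its groups overlapped on the deposited values. Slit1, at 5.46 and 5.48 against 5.02 and 4.90, straddled the dim level, and its difference of 0.51 shrank to 0.12 after quantile normalization, where it was not called.

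Of the 5 A-type ephrins 3 rose and 0 fell, and of the 3 B-type ephrins 0 rose and 1 fell, beside 22.4% and 11.5% of all genes. Of the A-type rises only that of Efna2 was called on all 4 scalings. The difference between the types was not tested. Efna2 read 7.84 and 7.96 in KrasD12 against 7.06 and 7.20 in WT and rose by 0.77 ± 0.09 (adjusted p = 0.0016). Efna5 read 9.35 and 9.34 against 8.85 and 8.82 and rose by 0.51 ± 0.065, but stood at 0.17 (0.165, adjusted p = 0.0991) with the columns centred. Efna4, at 8.06 and 8.14 against 7.67 and 7.68, rose by 0.425 as deposited and by 0.25 after quantile normalization, and likewise lost its call on centring (0.08, adjusted p = 0.39). Efnb1 read 7.97 and 8.05 against 8.31 and 8.27, a fall of 0.28 ± 0.07 (adjusted p = 0.0182) that was -0.44 after quantile normalization. Efnb2, the B-type ephrin known from arteries, differed by 0.06 ± 0.07 with groups that overlapped, and was -0.285 on centring. Efna1 and Efnb3 were called on the deposited values only, at 0.485 and 0.575, and stood at 0.09 and 0.225 after quantile normalization. Efna3, at -0.105, was called lower after quantile normalization only (-0.48).

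Of the 13 Eph receptors, 4 rose (30.8%) and 1 fell (7.69%), beside 22.4% and 11.5% of all genes. Epha2, an Eph receptor common in epithelia and tumours, read 7.50 and 7.42 in KrasD12 against 6.62 and 6.66 in WT and rose by 0.82 ± 0.07 (adjusted p = 0.000918), or 0.56 after quantile normalization. Epha3, a receptor of ephrin A5, read 5.24 and 5.21 against 6.16 and 6.05 and fell by 0.88 ± 0.07 (adjusted p = 0.000871), or 1.25 after quantile normalization, ending close to the dim level. Epha1, at 5.97 and 5.95 against 5.22 and 5.36, rose by 0.67 as deposited and by 0.29 after quantile normalization. Ephb3 read 8.94 and 8.98 against 8.42 and 8.44 and rose by 0.53 ± 0.07, and Ephb4, the partner of ephrin B2 in veins, read 9.54 and 9.60 against 9.19 and 9.24 and rose by 0.355 ± 0.07. When the columns were centred these 2 stood at 0.19 (0.185, adjusted p = 0.0686) and 0.01 (adjusted p = 0.917).

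Ephb1 read 5.11 and 5.61 in KrasD12 against 4.67 in each WT sample, and its call at 0.69 ± 0.17 (adjusted p = 0.016) was lost after quantile normalization (0.29, adjusted p = 0.151). Epha5, Epha6, Epha10 and Ephb6 were likewise higher on the deposited values only, and the means of Epha5 and Epha6 lay below the dim level in both groups. Epha7 was called lower after quantile normalization only (-0.35), and Epha4 and Epha8 were called on neither scaling. Ephb2 is not analysed here.

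**Figure D3:**
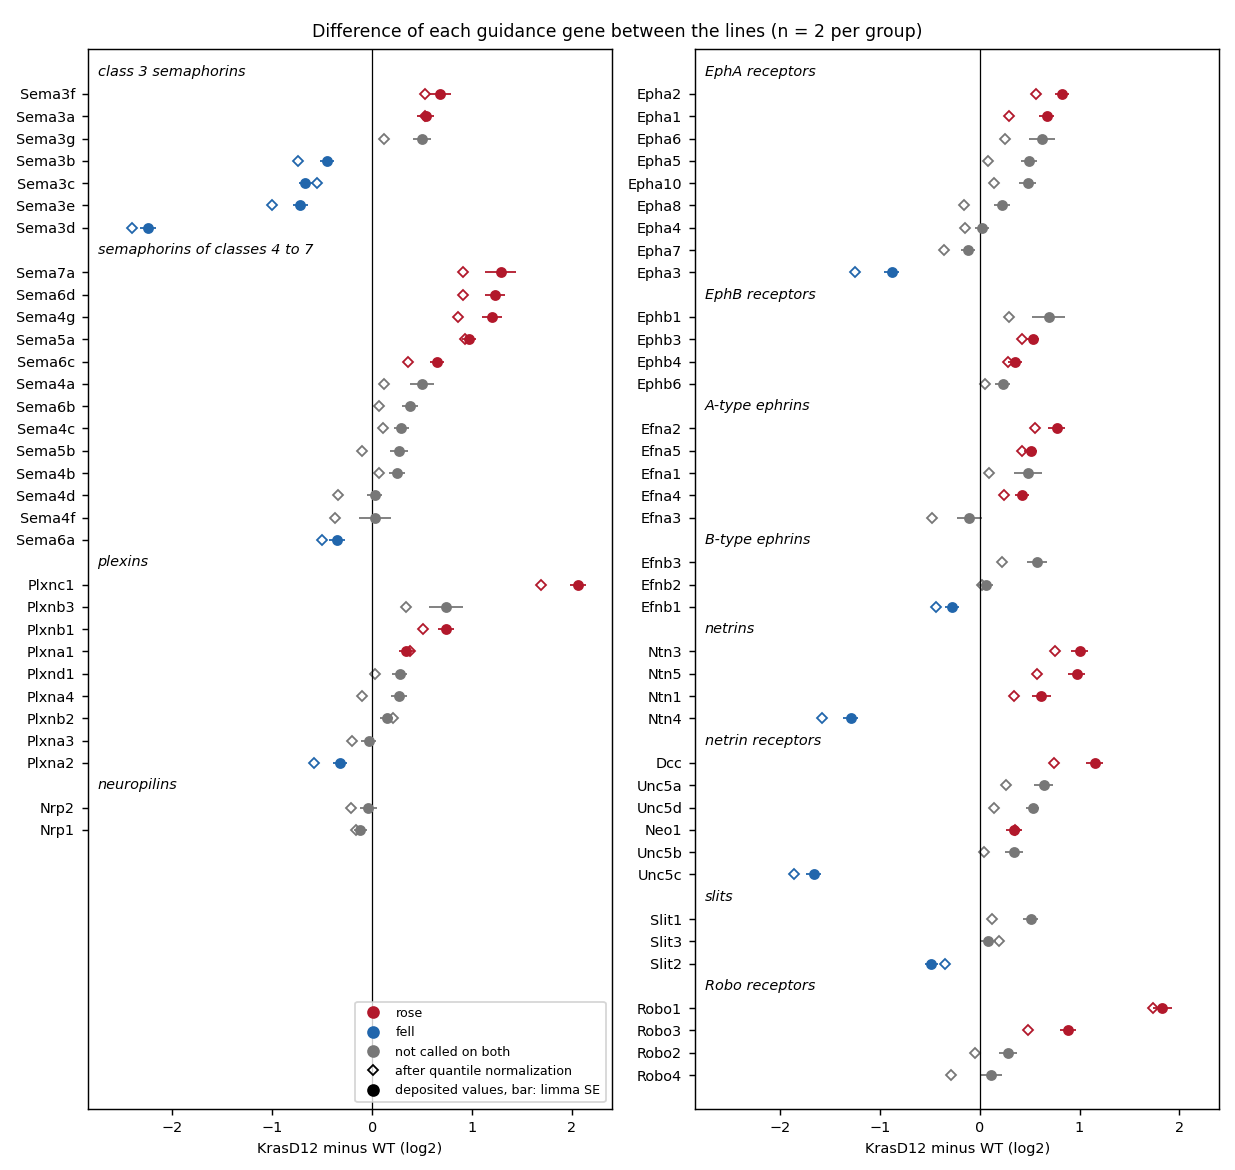
Difference KrasD12 minus WT (horizontal, log2) of each of the 69 guidance genes (vertical), grouped by role, with filled circles for the deposited values (bar, limma's SE, n = 2 per group) and open diamonds for values after quantile normalization. Red genes rose and blue genes fell on both scalings. Class 3 semaphorins fall on both sides of 0, from -2.245 for Sema3d to 0.68 for Sema3f.

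Of 81 listed co-receptors, other ligands and intracellular mediators of guidance signalling, 75 were measured, of which 23 rose (30.7%), 13 fell (17.3%), and 39 lacked a call on 1 or both scalings, beside 22.4% and 11.5% of all genes. Of those with a mean above the dim level 31.0% rose and 18.3% fell, beside 24.5% and 15.1% of all such genes. The median difference of the 75 was 0.205 as deposited and 0.0025 after quantile normalization. Of the 23 rises 13 were called on all 4 scalings, and of the 13 falls 12 were. Vav3, a guanine nucleotide exchange factor that acts below Eph receptors, read 7.17 and 6.97 in KrasD12 against 5.12 and 5.25 in WT and rose by 1.885 ± 0.10 (adjusted p = 0.000376). The pseudokinase Ptk7 rose by 1.275 and Lrig1, a leucine-rich repeat protein that restrains receptor kinases, by 1.25. The exchange factors Arhgef19 and Arhgef16 rose by 1.02 and 0.96, or 0.675 and 0.56 after quantile normalization. The repulsive guidance molecules Rgmb and Rgma, ligands of neogenin, rose by 0.84 and 0.73, and Fyn and Abl1, kinases that act below several of the receptors, by 0.755 and 0.64.

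Chn2, a Rac-inactivating chimaerin, read 5.02 and 5.05 in KrasD12 against 6.66 and 6.47 in WT and fell by 1.53 ± 0.09 (adjusted p = 0.000448). Rnd1, a GTPase that binds plexins, read 4.97 and 5.30 against 6.63 and 6.44 and fell by 1.40 ± 0.13 (adjusted p = 0.00113), so that the KrasD12 means of these 2 genes lay below the dim level. The actin-binding gene Ablim1 fell by 0.735, Crmp1, a collapsin response mediator, fell by 0.715 and the kinase Pak3 fell by 0.57. Members of 2 families went opposite ways. Srgap2 rose by 0.625 and Srgap1, another slit-Robo GTPase-activating protein, fell by 0.445. Dpysl3 rose by 0.43, a call lost with the columns centred (0.085, limma adjusted p = 0.387). Dpysl2 fell by 0.27, a call lost after cyclic loess (-0.21, limma adjusted p = 0.0508). Srgap3, Dpysl4 and Dpysl5 lacked a call on 1 or both scalings, with deposited differences of 0.055, 0.39 and 0.26. Rgma, Rgmb, Fyn, Abl1, Srgap1, Srgap2, Srgap3 and Dpysl2 to Dpysl5 were named after their values were seen.

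**Figure D4:**
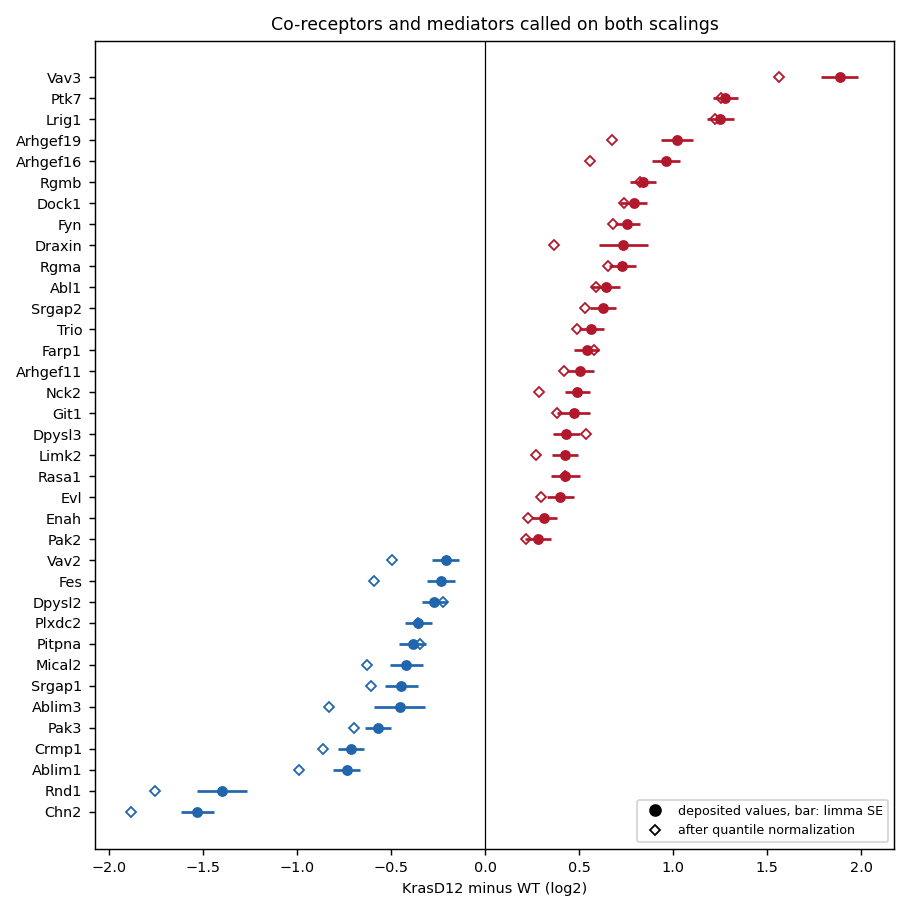
Difference KrasD12 minus WT (horizontal, log2) of the 36 co-receptors, ligands and mediators called on both scalings (vertical), with filled circles for deposited values (bar, limma's SE, n = 2 per group) and open diamonds for values after quantile normalization. Vav3 stands highest at 1.885 and Chn2 lowest at -1.53.

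Other cell types also express guidance genes, and in a bulk sample fewer cells of a type and less RNA per cell cannot be told apart. Of 10 endothelial markers 0 rose and 0 fell on both scalings, and 5 lay below the dim level in all 4 samples. Their summed level on the log2 scale ran from 8.90 to 8.97 in KrasD12 and from 8.50 to 8.62 in WT. All sums given here use the deposited values, on which the KrasD12 columns lay higher as a whole. The median difference of the endothelial markers was 0.3125 as deposited and -0.07 after quantile normalization. On the deposited values alone limma called 7 of these markers higher, where 50.1% of all genes were. After quantile normalization it called 1 lower, where 24.4% of all genes were. Of 10 epithelial markers Sftpb (0.70) and Sftpc (0.92) rose and 0 fell, beside 22.4% and 11.5% of all genes. Epcam (-0.31) and Krt19 (-0.48) were called lower after quantile normalization only. Summed levels were 8.84 to 8.98 in KrasD12 and 8.48 to 8.51 in WT. The median difference of the epithelial markers was 0.4175 as deposited and 0.06 after quantile normalization. Of 6 leukocyte markers 1 rose and 1 fell, 2 (Cd68 and Cd3e) lay above the dim level in all 4 samples and 3 below it, Ptprc among them. Smooth-muscle and myofibroblast markers differed between the lines: 5 of 6 fell, and the summed level of the 6 was 10.8 to 11.0 in KrasD12 against 12.5 to 12.6 in WT. The sixth, Des, was called higher on the deposited values only (0.525, and 0.13 after quantile normalization). Fibroblast markers summed to 15.2 in KrasD12 and 15.3 in WT, with 2 of 11 rising (18.2%) and 4 falling (36.4%). Their median difference was -0.205 as deposited and -0.03 after quantile normalization. Of 5 neural or Schwann markers 1 rose and 3 fell, of 5 pericyte markers 1 rose, and of 4 mesothelial markers 0 rose and 0 fell. Each of these marker counts stands beside 22.4% of all genes that rose and 11.5% that fell. Whether these marker differences have a part in the guidance gene differences was not tested.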

How the data were processed

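4 Affymetrix arrays were used, 2 per group. The authors deposited log2 values, 1 per array row and sample, and the log2 scale was read from the values, which run from 2.28 to 14.95. The Transcriptome Analysis Console is named in the submitters' processing notes. Its version is not given in the sources used here, nor are background correction and normalization. For arrays, their number limits the precision, here 2 residual degrees of freedom.

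The file has 28944 rows, of which 21789 pair with 1 symbol in the platform annotation, 1621 with several and 5534 with none. Of the first, 21698 matched the GRCm38.p6 gene table, which gave current names and neighbours. The highest-mean row stood for each gene. limma 3.58.1 in R 4.3.3 (lmFit, eBayes, group only, two-sided) tested 19938 genes with Benjamini-Hochberg adjustment at 0.05, before and after quantile normalization of all rows. The test across genes was checked on simulated data in which few genes differed. It called 84% of true log2 differences of 1 but only 9% of those of 0.5, with 4 false calls. In the deposited values 62.1% of genes were called, which loosens the adjusted threshold. No shift between the columns was simulated. The shares and the false calls therefore do not carry over to these data. Python 3.11.15 with pandas 2.3.3 joined the results, R read the files through the data.table package, version 1.17.8, and matplotlib 3.10.9 drew the figures.

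The naming rule took every member that rose or fell on both scalings, the brightest member of a role group with none, the 3 members with the largest difference among those called on 1 scaling only (Plxnb3, Ephb1, Unc5a), and the 5 largest rises and falls among mediators. Members named beyond it, such as Nrp2, Robo2, Slit3 and Efnb2, were named after their values were seen. The rule also gave 1 gene outside these lists, which is not reported here. Members, lists and tests were chosen with earlier results of these data known. Letters A and B do not pair the samples: over genes, A minus B in KrasD12 and in WT correlated at 0.0132, and there are only 2 letters.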

Additional observations from a re-analysis of the deposited data

How the results depend on the processing

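Counts of guidance genes moved with the scaling and with the number of arrays. The count called higher was 45 on the deposited values, 24 after quantile normalization, 17 with the columns centred and 24 after cyclic loess, and the count called lower went from 11 to 20 on centring. A size of at least 2-fold left 7 higher and 3 lower on the deposited values, and 2 rises and 3 falls on both scalings. With 1 array left out, the counts ran from 0 to 22 (higher) and 0 to 7 (lower) on the deposited values, from 0 to 19 rises and 0 to 6 falls on both scalings, and from 0 to 12 rises and 0 to 6 falls among mediators. The lone sample was assumed to vary like the other group, and the zeros come from the fits without a WT array. With the letter as a replicate block, limma called 38 guidance genes higher and 9 lower as deposited, and 26 rose and 9 fell on both scalings. Efnb1 (adjusted p = 0.0506) and Sema6a (0.056) lost their deposited call there. Centring turned Neo1 (-0.005) and Plxna1 (-0.005). Among mediators the block gave 20 rises and 9 falls. Testing only genes above the dim level, or averaging a gene's rows, kept every count within 1.5 times, as did a trended or robust eBayes for the guidance genes, which was not run for the mediators.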

Other observations

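5 members had more than 1 array row. The rows of Epha10 differed by 0.48 and 0.775, those of Ephb1 by 0.69 and 0.465, those of Unc5d by 0.53 and 0.46, and those of Sema4d by 0.025 and 0.395, each KrasD12 minus WT on the deposited log2 values. The rows of Sema6b held equal values in all 4 samples, with a difference of 0.375. None of these genes was called on both scalings with its brightest row.

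Of 35 ligands among the members 13 rose (37.1%) and 8 fell (22.9%), and of 34 receptors 11 rose (32.4%) and 3 fell (8.82%), beside 22.4% and 11.5% of all genes. A difference between ligands and receptors was not tested.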
